A study of Mus musculus with 7 samples.

Results

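The S100 proteins are small calcium-binding proteins of vertebrates, and 8 of their genes are described here in cancer cells sorted from mouse mammary tumors: S100a1, S100a4, S100a6, S100a8, S100a9, S100a10, S100a11 and S100a13. They are a fixed list of gene symbols, and each symbol matched 1 of the 57126 genes of the deposited expression table. Transcripts were measured by RNA-seq in 4T1 cells, a triple-negative breast cancer line of BALB/c mice, which carried the red fluorescent protein mCherry and were sorted by it from tumors in the mammary fat pad. Before the tumor cells, by 7 days, the fat pad was injected with 100 µL of saline (PBS, 3 libraries) or with the same volume of PBS holding 0.3 units of Botox (4 libraries). Botox is a botulinum toxin, which stops nerve endings from releasing transmitter, and it served to denervate the fat pad. All hosts were BALB/c mice of the same strain as the cell line, and each library came from a mouse of its own, per the labels. Groups were read from the sample titles, since the treatment field reads the same for all 7 libraries. The sources used here give neither the age of the mice nor the number of sorted cells. The comparison asks how earlier denervation of the site affects the transcripts of the cancer cells.

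S100 proteins form dimers whose EF-hand loops bind calcium and then expose a surface that grips target proteins. S100A4, known as metastasin, binds nonmuscle myosin and is linked to the spread of breast tumors. S100A6, or calcyclin, binds the adaptor CACYBP. S100A10 holds a fixed open shape without calcium and joins annexin A2 in a complex at the plasma membrane that also binds plasminogen, and S100A11 pairs with annexin A1. S100A13 takes part in the release of FGF1 and interleukin-1 alpha, and S100A1 is best known for calcium handling in muscle. S100A8 and S100A9 pair as calprotectin, which fills the cytosol of neutrophils, binds zinc and manganese, and when released acts on TLR4 and on RAGE, the product of Ager. Some tumor cells and monocytes also make S100A8 and S100A9, so their transcripts do not by themselves name a cell.

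All 8 genes lie on chromosome 3 (coordinates in mm39, whole gene with introns, as the deposited table gives them). S100a1 (ENSMUSG00000044080) lies on the minus strand at chr3:90418341-90421700, beside S100a13 (ENSMUSG00000042312) on the plus strand at chr3:90421742-90431889. They are followed by S100a4 (ENSMUSG00000001020) at chr3:90511078-90513353 and S100a6 (ENSMUSG00000001025) at chr3:90520189-90531489. S100a8 (ENSMUSG00000056054) lies on the plus strand at chr3:90576285-90577343 and S100a9 (ENSMUSG00000056071) on the minus strand at chr3:90599939-90603029. S100a11 (ENSMUSG00000027907) at chr3:93427795-93433595 and S100a10 (ENSMUSG00000041959) at chr3:93462387-93471951 form a separate group on the same chromosome. S100a4 shares its span with the predicted gene Gm42674, which was listed at 0 in all 7 libraries, and no other member overlapped a listed gene. S100a11 has a processed pseudogene on chromosome 12, S100a11-ps, so its reads are uncertain, since reads of gene and pseudogene could be exchanged.

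The bases just before the start of transcription are shown for 4 members whose transcripts took different courses below, and for the stretch between S100a1 and S100a13, which start head to head. The sequences are from RefSeq, build GRCm38.p6, and 7 of the 8 members matched its promoter table. Each of the first 4 runs 100 bases 5′ to 3′ on the gene's own strand and ends at the base before the start. Capitals mark TATAAA, the TATA box, in S100a8 and S100a4 and GGGCGG, the GC box, in S100a11, and the bases of S100a9 shown hold neither. The last is the plus strand between the S100a1 and S100a13 starts and has neither motif.
S100a8, chr3:90668971-90669070, plus strand: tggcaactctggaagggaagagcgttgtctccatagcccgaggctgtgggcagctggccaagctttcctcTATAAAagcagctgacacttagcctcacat
S100a4, chr3:90603670-90603769, plus strand: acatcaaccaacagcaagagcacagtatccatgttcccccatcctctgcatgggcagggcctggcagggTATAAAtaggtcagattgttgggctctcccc
S100a9, chr3:90695722-90695821, minus strand: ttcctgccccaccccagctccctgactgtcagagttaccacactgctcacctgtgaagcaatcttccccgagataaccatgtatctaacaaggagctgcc
S100a11, chr3:93520396-93520495, plus strand: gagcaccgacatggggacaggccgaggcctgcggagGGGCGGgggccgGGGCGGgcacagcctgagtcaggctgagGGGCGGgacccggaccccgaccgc
S100a1 and S100a13, chr3:90514331-90514434, plus strand: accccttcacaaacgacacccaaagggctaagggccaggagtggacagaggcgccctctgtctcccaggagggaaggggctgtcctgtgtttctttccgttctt
Both strands were searched for TATAAA and GGGCGG in the 250 bases before each start. TATAAA was found in 2 of the 7 members, S100a8 and S100a4, beginning 30 and 31 bases before the start, and in 12.4% of 32851 promoters of that length. GGGCGG was found in S100a11 (3 matches) and once in S100a9, 223 bases before its start, outside the bases shown, and in 32.7% of those promoters. A match says only that these letters are present.

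The libraries differed in scale and in how many weak genes they held, which bears on each value below. The deposited unit is TPM, a level per gene length scaled to the same total in every library, made here with the whole genomic span of a gene as its length. The depth, estimated from the steps between low values, was 8.75 to 13.6 M reads (megareads) after PBS and 8.56 to 10.5 M after Botox. Among protein-coding genes for which the PBS libraries predict 10 to 30 reads, 25.6% were listed at 0 in Botox 2, 30.7% in Botox 4 and 6.05% in Botox 3, against 0.670% in Botox 1 and 0.119% to 0.194% in the PBS libraries. The RNA of the signal recognition particle (7SL) took 47.9% to 52.0% of TPM in PBS tumors and 53.0% to 70.4% after Botox, and size factors (the scale of each library from the median ratio of its genes) were 1.22 to 1.42 and 0.454 to 1.16. The tested genes as a whole had a median log2 fold change, Botox minus PBS, of -0.46 on the deposited scale and of -0.04 after size factors. The sorted cells carried tumor cell transcripts, with 9 of 10 tumor cell markers high enough to be tested and summed levels of 836 to 891 TPM in PBS tumors and 278 to 810 TPM in Botox tumors. Vim alone supplied 502 to 535 TPM of these sums in PBS tumors and 138 to 499 TPM in Botox tumors. The sorted cells also carried macrophage transcripts, with 13 of 17 markers tested and summed levels of 868 to 1347 TPM and 240 to 1114 TPM. Fibroblast markers summed to 5.32 to 8.22 TPM and 3.19 to 4.01 TPM, and endothelial, T or NK, B and Schwann cell markers to under 2 TPM per list in every library. In bulk RNA, fewer cells of a type and less RNA per cell cannot be told apart.

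S100a4, S100a10 and S100a6 were the most abundant of the 8 genes, and S100a8 and S100a9 were weak and uneven. S100a4 was at 49.5, 46.8 and 37.0 TPM in PBS 1 to 3 and at 44.9, 9.60, 53.6 and 16.8 TPM in Botox 1 to 4. S100a10 was at 23.3, 30.2 and 25.4 TPM and at 24.7, 14.9, 31.8 and 7.48 TPM in the same order. For both genes Botox 1 and Botox 3 lay among or above the PBS libraries, while Botox 2 and Botox 4 lay below all 3. S100a6, with 5.93, 5.61 and 4.28 TPM in PBS tumors and 4.97, 2.08, 5.92 and 1.62 TPM in Botox tumors, had the same split. Botox 2 and Botox 4 are also the libraries with the smallest size factors and the most weak genes missing, and the part of either in these low values was not tested.

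**Figure D1:**
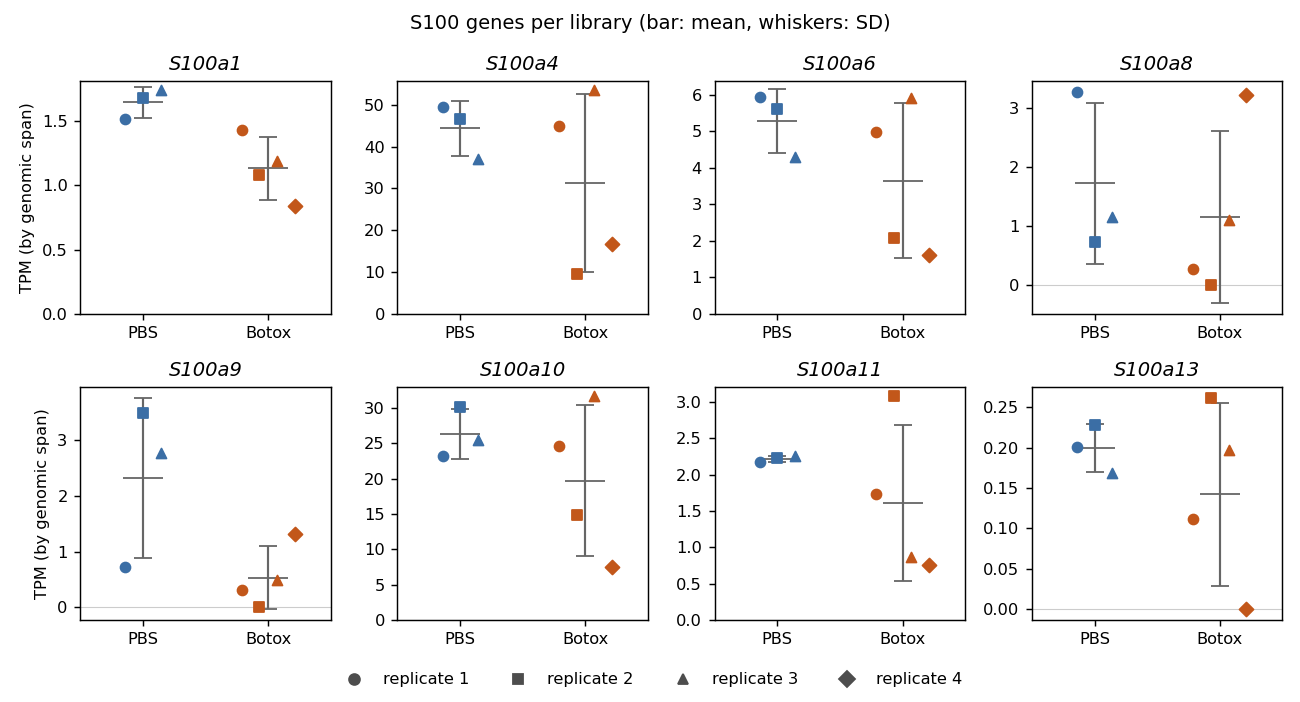
TPM of the 8 genes in each library, with a separate linear axis for each gene (blue, 3 PBS libraries; orange, 4 Botox libraries; marker shape, replicate number; bar, mean; whiskers, SD). S100a4, S100a6 and S100a10 are low in Botox 2 and Botox 4 only, and S100a1 is the 1 gene whose groups do not overlap.

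S100a11 and S100a1 were weaker than these 3 in TPM. S100a11 was nearly even after PBS, at 2.18, 2.24 and 2.25 TPM, and spread widely after Botox, at 1.73, 3.08, 0.861 and 0.755 TPM. Its highest value was in Botox 2, the library with the lowest S100a4. S100a1 was at 1.52, 1.68 and 1.75 TPM in PBS tumors and at 1.43, 1.08, 1.19 and 0.840 TPM in Botox tumors, so the highest Botox value was below the lowest PBS value. These values rest on 25, 44 and 48 estimated reads with PBS and on 34, 30, 24 and 29 with Botox. S100a1 was the only 1 of the 7 tested members without overlap, against 22.4% of all tested genes with all Botox libraries below on this scale. After size factors its groups overlapped, and 3.77% of all tested genes had all Botox libraries below. S100a13, the neighbor of S100a1, stayed below 1 TPM throughout, at 0.201, 0.228 and 0.169 TPM in PBS tumors and at 0.111, 0.262, 0.197 and 0 TPM in Botox tumors. These values stand for 8 to 22 estimated reads in the 6 libraries above 0, and in Botox 4 a total of 3 reads would have given 0.0288 TPM. The PBS libraries predict only 7.25 reads there, and Botox 4 lacked 30.7% of the genes expected at 10 to 30 reads. The part of this in the zero of S100a13 was not tested.

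The order of the members depended on which length the reads were divided by. The spans run from 1058 bases for S100a8 to 11300 for S100a6, but the spliced transcripts only from 486 to 731 bases (first protein-coding transcript in GENCODE M21). By TPM, S100a4 came first, at a mean over the 7 libraries of 36.9 ± 17.1 (SD), ahead of S100a10 at 22.5 ± 8.60 and S100a6 at 4.34 ± 1.80, and it lay above S100a10 in 6 of 7 libraries. As estimated reads per M reads of the library and kilobase of spliced transcript, S100a10 came first, at 214 ± 64.7, ahead of S100a4 at 115 ± 44.6, and it lay above S100a4 in 7 of 7 libraries. S100a6 followed at 45.5 ± 14.4, S100a11 at 14.8 ± 6.53, S100a9 at 5.49 ± 5.23, S100a1 at 4.70 ± 0.490, S100a8 at 2.39 ± 2.83 and S100a13 at 1.58 ± 0.907. S100a9 lay above S100a1 in 3 of 7 libraries and S100a8 above S100a13 in 3 of 7, so these neighbors did not differ beyond their spread. S100a1 had the smallest spread of the 8 for its mean. These ranks assume that the reads came from spliced transcripts, which was not tested.

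**Figure D2:**
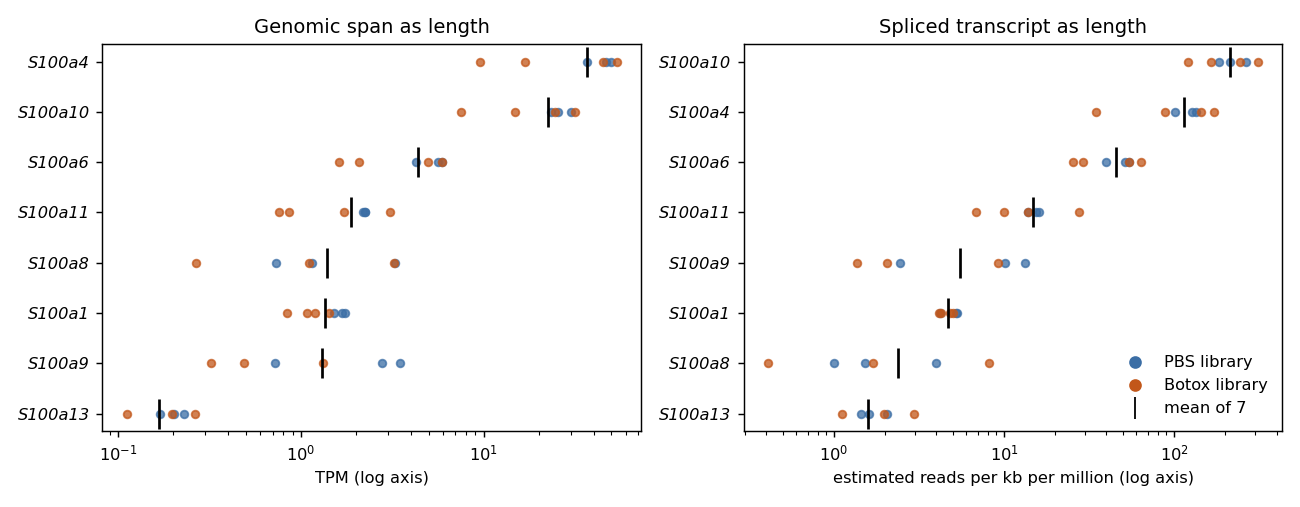
Levels of the 8 genes in each library on log axes, as TPM by genomic span (left) and as estimated reads per M reads and kilobase of spliced transcript (right), sorted by the mean of 7 libraries (black bar; blue, PBS; orange, Botox). Values of 0 (S100a8 and S100a9 in Botox 2, S100a13 in Botox 4) are not drawn; S100a4 leads on the left and S100a10 on the right.

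Because library scale cancels in a ratio of 2 genes of the same library, ratios per spliced length were also compared. S100a4 over S100a6 was 2.47, 2.47 and 2.55 in the PBS libraries and 2.67, 1.36, 2.67 and 3.06 in Botox 1 to 4. The 3 PBS ratios were nearly equal, and Botox 2 alone lay below them. S100a10 over S100a4 was 1.44, 1.97 and 2.10 after PBS and 1.68, 4.73, 1.81 and 1.36 after Botox, so the same library stood apart. S100a11 as a percentage of S100a10 was 7.60, 6.02 and 7.21 after PBS and 5.69, 16.9, 2.204 and 8.21 after Botox. Botox 2 thus held little S100a4 and much S100a11 for its S100a6 and S100a10, and Botox 4, the library with the smallest size factor, did not. In none of these ratios did the groups separate.

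**Figure D3:**
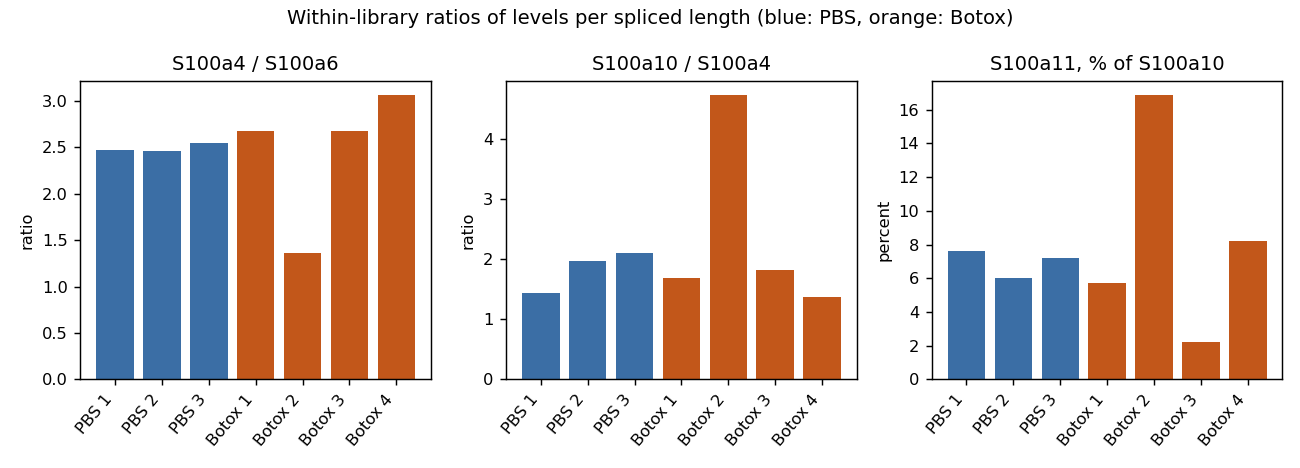
Ratios of levels per spliced length within each library (blue, PBS; orange, Botox; linear axes from 0). Botox 2 has the lowest S100a4 over S100a6 (1.36), the highest S100a10 over S100a4 (4.73) and the highest S100a11 as a percentage of S100a10 (16.9).

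The calprotectin genes were weak, kept the same order over the Botox libraries and parted among the PBS libraries. S100a8 was at 3.27, 0.729 and 1.16 TPM in PBS 1 to 3 and at 0.267, 0, 1.10 and 3.22 TPM in Botox 1 to 4. S100a9 was at 0.725, 3.49 and 2.77 TPM and at 0.320, 0, 0.485 and 1.32 TPM in the same order. Both genes were listed at 0 in Botox 2 and rank upward from there through Botox 1 and Botox 3 to Botox 4. Among the PBS libraries S100a8 was highest in PBS 1, where S100a9 was lowest. After size factors both genes were highest in Botox 4 of all 7 libraries, S100a9 by a small margin at 2.91 against 2.87 in PBS 2. In estimated reads the pair counted 17 and 11 in PBS 1, 6 and 84 in PBS 2, 10 and 70 in PBS 3, 2 and 7 in Botox 1, 7 and 9 in Botox 3, and 35 and 42 in Botox 4 (S100a8 first), with none of either in Botox 2. S100a8 made up 60.7% of the pair's reads in PBS 1 (exact Clopper-Pearson 95% interval 40.6% to 78.5%), 6.67% in PBS 2 (2.49% to 13.9%) and 12.5% in PBS 3 (6.16% to 21.8%). In the Botox libraries it made up 22.2% (2.81% to 60.01%), 43.8% (19.8% to 70.1%) and 45.5% (34.1% to 57.2%) in Botox 1, 3 and 4. The interval of PBS 1 does not reach those of PBS 2 and PBS 3. The intervals hold counting error only, since the libraries are described without molecular identifiers and reads may repeat a molecule. For Botox 2, 3 reads would have given 0.342 TPM of S100a8 and 0.117 TPM of S100a9, and the PBS libraries predict 10.1 and 42.8 reads there. That library also lacked 25.6% of the genes expected at 10 to 30 reads, as given above. This range holds the prediction for S100a8 but not that for S100a9. The part of missing weak genes in these zeros was not tested. For S100a9 the mean PBS level predicts 43.1 reads in Botox 1, where 7 were found, and 39.5 in Botox 3, where 9 were found. PBS 1 had a like shortfall, with 11 reads against 39.7 predicted. Botox 4 went the other way, with 35 reads of S100a8 against 6.25 predicted and 42 of S100a9 against 26.6.

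**Figure D4:**
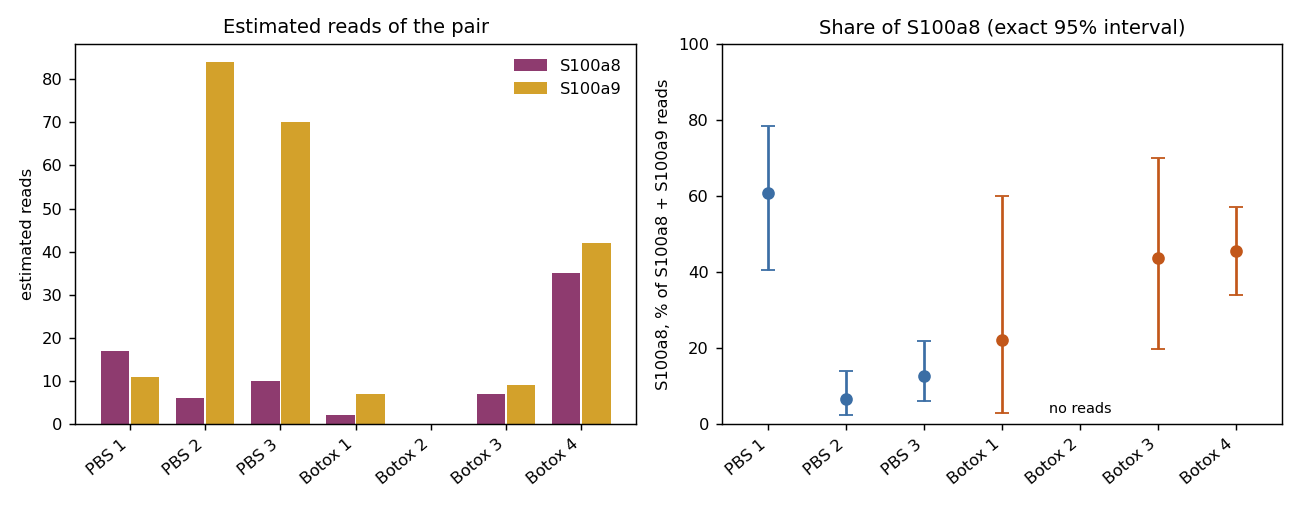
Estimated reads of S100a8 and S100a9 in each library (left) and S100a8 as a percentage of the reads of both, with exact 95% intervals (right; blue, PBS; orange, Botox). S100a9 dominates in PBS 2 and PBS 3, the reads are closer to even in PBS 1, Botox 3 and Botox 4, and Botox 2 has no reads of either.

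Summed TPM of S100a8 and S100a9 was 4.00, 4.22 and 3.92 after PBS and 0.587, 0, 1.59 and 4.54 after Botox. Botox 1 to 3 lay below all PBS libraries and Botox 4 above them. The PBS mean was 4.05 ± 0.155 (SD, n = 3) and the Botox mean 1.68 ± 2.02 (SD, n = 4), a difference of -2.37 TPM (exact two-sided permutation p = 0.229; 0.686 adjusted over 3 summary measures). With 35 arrangements of the libraries the smallest two-sided p of this test is 0.0571, so it cannot reach 0.05. Without Botox 4 the difference was -3.32 TPM (exact permutation p = 0.1, the smallest possible with 6 libraries). Botox 4 alone of the Botox libraries lay above the PBS range, so leaving it out fixed that p in advance. Leaving out any other single library gave -2.43 to -1.81 TPM (exact permutation p = 0.4 each). After size factors with all libraries the difference was -0.13 TPM. The PBS sums lay close together by genomic span, but per spliced length they were 6.45, 14.3 and 11.6.

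The other 6 members together were at 82.6, 86.7 and 70.8 TPM in PBS tumors and at 77.9, 31.0, 93.5 and 27.4 TPM in Botox tumors. The means were 80.1 ± 8.25 (SD, n = 3) and 57.4 ± 33.2 (SD, n = 4), a difference of -22.6 TPM (exact two-sided permutation p = 0.457; 0.686 adjusted over 3 measures). It turned to 5.61 TPM without Botox 2 and Botox 4 and to 0.65 after size factors. S100a8 and S100a9 made up 4.62%, 4.64% and 5.25% of the TPM of the 8 genes after PBS and 0.748%, 0%, 1.67% and 14.2% after Botox, a share that does not move with library scale. Botox 1 to 3 lay below the PBS range and Botox 4 far above it, and the means were 4.84% ± 0.358 (SD, n = 3) and 4.15% ± 6.73 (SD, n = 4; exact two-sided permutation p = 0.914, also after adjustment). The share does move with the gene length used. Per spliced length it was 1.67%, 2.90% and 2.98% after PBS and 0.382%, 0%, 0.663% and 6.41% after Botox. Without Botox 4 the difference in share by TPM was -4.03 percentage points (exact permutation p = 0.1, the smallest possible). That p was again fixed by the library left out. Without Botox 1, 2 or 3 the difference was 0.45, 0.70 or 0.14 points. Without any single PBS library the exact permutation p was 0.8.

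Across the whole table no S100 gene passed the test. Of the 8 members 7 reached 1 TPM in at least 3 libraries and were tested with limma on log2(TPM + 1), and S100a13 was not. S100a9 reached that level in PBS 2, PBS 3 and Botox 4 only. With Benjamini-Hochberg adjustment over 11253 genes, 0 of the 7 members were called at 0.05, as were 0% of all tested genes in either direction. At an unadjusted limma p under 0.05, 1 of the 7, S100a9, was lower after Botox, against 7.37% of all genes lower and 0.133% higher. All 7 had negative log2 fold changes on the deposited scale, as did 93.8% of all genes, and their median was -0.54 against -0.46 for all. After size factors 4 of the 7 were negative against 56.5% of all genes, and the median was -0.03 against -0.04.

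S100a9 had the largest fold change of the 7 tested members. It averaged 2.33 ± 1.44 TPM with PBS (SD, n = 3) against 0.532 ± 0.564 TPM with Botox (SD, n = 4), so that the PBS mean was 4.38 times the Botox mean. This ratio was 8.68 without Botox 4 and 3.29 to 5.89 without any other single library. With all libraries it was 2.03 after size factors and 2.72 per spliced length. Its log2 fold change was -1.08 ± 0.39 (SE; limma adjusted p = 0.42, and 0.19 to 0.93 over 15 alternative settings), and the PBS 1 value of 0.725 TPM lay inside the Botox range. Relative to the median of all genes it was -0.62, and after size factors it was -0.69 ± 0.53 (SE; limma adjusted p = 0.93). S100a8 averaged 1.72 ± 1.36 and 1.15 ± 1.46 TPM, which gave -0.46 ± 0.49 on the log2 scale (SE; limma adjusted p = 0.52), equal to the median of all genes to 2 decimals. This value was -0.08 without PBS 1 and -0.86 without Botox 4. The Botox mean of S100a8 was the higher one on the other scales, at 2.07 against 1.27 after size factors and 2.55 against 2.17 per spliced length. S100a4 was at 44.4 ± 6.60 and 31.2 ± 21.3 TPM, which gave -0.78 ± 0.57 on the log2 scale (SE; limma adjusted p = 0.42) and -0.18 after size factors. S100a10 was at 26.3 ± 3.55 and 19.7 ± 10.7 TPM and S100a6 at 5.27 ± 0.873 and 3.65 ± 2.12 TPM. Without Botox 2 and Botox 4 the log2 fold changes of S100a4, S100a6 and S100a10 turned to 0.15, 0.05 and 0.10. S100a11 and S100a1, at -0.39 ± 0.33 and -0.32 ± 0.24 (SE), lay above the all-gene median and turned to 0.000381 and 0.04 after size factors.

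**Figure D5:**
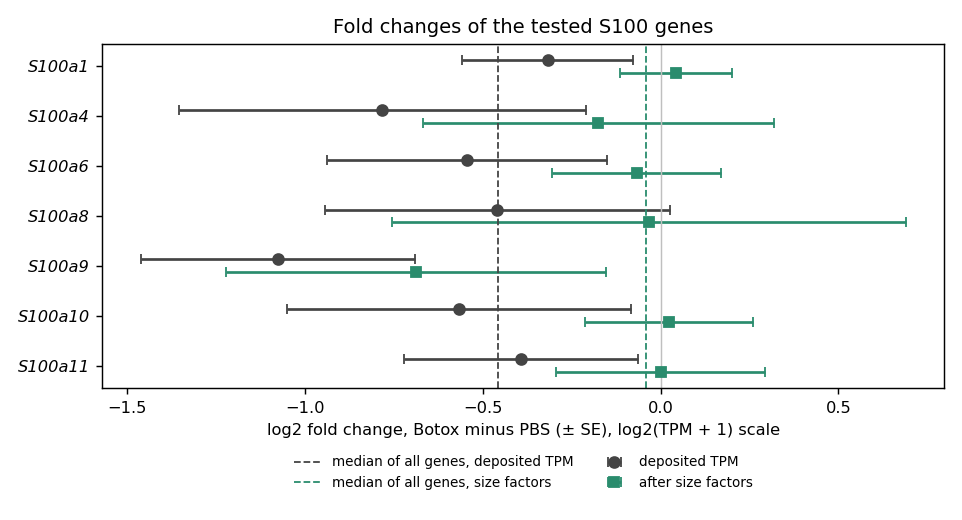
Log2 fold changes of the 7 tested members with SE, Botox minus PBS, on the deposited TPM scale (circles) and after size factors (squares), both as log2(value + 1). Dashed lines mark the median of all tested genes on each scale; S100a9 lies farthest to the left of them, with a log2 fold change of -1.08 and -0.69.

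The other S100 genes followed no common course. Of 8 other family genes S100a16 and S100a14, both on chromosome 3, were tested and 0 were called with limma, and S100z was listed at 0 in all libraries. S100a16 was at 2.04, 2.11 and 2.16 TPM in PBS tumors and at 1.68, 1.31, 3.08 and 1.24 TPM in Botox tumors, again with Botox 3 highest. S100a14 was at 0.822, 0.972 and 0.987 TPM in PBS tumors and at 1.21, 1.28, 0.756 and 2.16 TPM in Botox tumors, with its highest value in Botox 4, where most members were lowest. Its log2 fold change was 0.26 ± 0.27 (SE; limma adjusted p = 0.51). S100a7a reached 1.75 TPM in Botox 3 and 0.389 TPM in Botox 2. S100b, a marker of Schwann cells, was at 0.0879 to 0.307 TPM in PBS tumors and 0 to 0.251 TPM in Botox tumors, and S100a3 and S100a5 were at no more than 0.204 TPM in any library.

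The median fold change of the tested S100 partner and receptor genes lay near that of all genes, with Il1a farther from it. Of 19 listed genes 14 were tested, 0 were called with limma after Benjamini-Hochberg adjustment, and 1, Il1a, had an unadjusted p under 0.05. All 14 were negative on the deposited scale with a median log2 fold change of -0.51, and 7 of 14 were negative after size factors with a median of -0.01. In 3 of 14, Anxa1, Anxa11 and Myh9, the groups did not overlap and Botox was lower, against 22.4% of all tested genes. Il1a, whose product is released with S100A13, was at 2.98, 4.42 and 10.6 TPM in PBS tumors and at 0.979, 5.78, 0.546 and 1.57 TPM in Botox tumors, which gave -1.22 ± 0.52 on the log2 scale (SE; limma adjusted p = 0.42), or -0.77 relative to the median of all genes. Anxa2, the partner of S100A10, averaged 8.10 ± 0.985 TPM with PBS (SD, n = 3) against 5.70 ± 2.45 TPM with Botox (SD, n = 4), and Anxa1, the partner of S100A11, at 9.90 ± 0.749 and 6.76 ± 2.68 TPM. Anxa2, like Anxa11, falls outside the rule for named genes, and both were chosen with their values known. Cacybp, which encodes the S100A6 target, was at 10.3 ± 1.46 and 6.39 ± 2.86 TPM, and the myosin genes Myh9 and Myh10 at 10.4 ± 1.01 and 6.99 ± 1.89 TPM and at 1.502 ± 0.309 and 0.858 ± 0.376 TPM. Plaur, the receptor of urokinase, was at 8.30 ± 1.51 and 4.93 ± 2.30 TPM, and Plat, the tissue plasminogen activator, at 1.44 ± 0.317 and 0.870 ± 0.648 TPM.

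Of the receptors, Bsg, which encodes basigin, was the most abundant and averaged 30.7 ± 1.89 TPM with PBS (SD, n = 3) against 20.3 ± 9.997 TPM with Botox (SD, n = 4). Tlr4 was at 1.15, 0.940 and 1.10 TPM in PBS tumors and at 0.436, 0.998, 0.630 and 0.336 TPM in Botox tumors. Ager, the RAGE gene, was at 0.530, 0.209 and 0.199 TPM in PBS tumors and at 0.413, 0.903, 0.325 and 1.01 TPM in Botox tumors, with its highest values in Botox 2 and Botox 4 and a Botox mean 2.12 times the PBS mean. Tlr4 and Ager were too weak for the test.

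Other neutrophil markers were mostly weak. Apart from Mmp9 and Lcn2 the highest mean over the 7 libraries was that of Padi4, at 0.746 TPM. S100a8 and S100a9 averaged 1.39 and 1.30 TPM, and all these levels are by genomic span. Of 21 markers 12 reached 0.1 TPM in at least 1 library, and 9 did not. Among them 2 were tested, Mmp9 and Lcn2, which other cells also make, and they supplied most of the summed 17.7 to 26.6 TPM in PBS tumors and 6.86 to 16.3 TPM in Botox tumors. Ly6g, the defining surface marker of mouse neutrophils, had 0.0331 TPM in PBS 2 and was listed at 0 in the other 6 libraries, and Fcnb and Stfa1 were listed at 0 in all 7. Cxcr2, a neutrophil chemokine receptor, was at 0.421, 1.36 and 1.13 TPM in PBS tumors and at 0.156, 0, 0.413 and 0.724 TPM in Botox tumors. It was highest in the PBS libraries with the most S100a9 and listed at 0 in Botox 2. Ngp, a neutrophil granule protein, was at 0.437, 0.944 and 0.674 TPM in PBS tumors and at 0.216, 0, 0 and 0 TPM in Botox tumors. Retnlg was at 0.434, 0.479 and 0.651 TPM and at 0, 0, 0.355 and 0 TPM in the same order. For both genes, and for Mmp8 and Il1r2 of the 21 markers, all Botox values lay below all PBS values. The same held for 22.4% of all tested genes, a set of stronger genes that holds none of these markers, so that share is no direct background for them. These markers were too weak for the test, and Botox 2 and Botox 4 lacked many weak genes, as given above. Csf3r, the receptor of the growth factor G-CSF, was at 0.246, 0.620 and 1.25 TPM and at 0.220, 0.843, 0.443 and 0.347 TPM. Ifitm6 reached 0.693 and 0.824 TPM in PBS 2 and PBS 3 and no more than 0.380 TPM elsewhere. Padi4 was at 0.897, 0.711 and 0.849 TPM in PBS tumors and at 0.707, 0.651, 1.16 and 0.247 TPM in Botox tumors. It was thus highest in Botox 3 and present in Botox 2. Ltf and Cd177 had Botox means of 2.37 and 1.06 times their PBS means. Ltf reached 0.113 TPM in Botox 2 and Cd177 reached 0.119 TPM in Botox 4. Mmp8, a neutrophil collagenase, was at 1.85, 0.538 and 0.621 TPM in PBS tumors and at 0.0563, 0, 0.0830 and 0.514 TPM in Botox tumors, and Chil3, from the macrophage list, was at 2.14 TPM in PBS 1 and at no more than 0.00642 TPM elsewhere. Mmp8 and Chil3 were thus highest in PBS 1, the PBS library with the most S100a8. The macrophage markers, highest for Lyz2, had sums of 1078, 868 and 1347 TPM in PBS 1 to 3 and of 240, 1114, 735 and 540 TPM in Botox 1 to 4. Botox 2, without a read of S100a8 or S100a9, had the highest macrophage sum of the Botox libraries. Of the marker genes named here, all but Mmp9 and Lyz2 were chosen with their values known, and the part of other cells in the S100a8 and S100a9 values was not tested.

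The genes whose pattern over the 7 libraries was most like each set were found by Pearson's r on log2(value + 1) after size factors among 7086 protein-coding genes. For the S100a8 and S100a9 sum they were Pptc7 (r = 0.98), Fads1 (0.97), Zfp106 (0.97), Rhov (0.96) and Coasy (0.95). On the deposited scale only Rhov of these was, like the pair, listed at 0 in Botox 2 and highest in Botox 4. Rhov was at 1.57, 1.80 and 2.65 TPM in PBS tumors and at 0.409, 0, 0.562 and 2.96 TPM in Botox tumors. After size factors, the scale on which r was found, all of these genes were highest in Botox 4. For the sum of the other 6 members they were Pdlim2, Tmem238 and Fzd2 (r = 0.97 each), Abcb6 (0.97) and Sparc (0.97), all lowest in Botox 2 and Botox 4 on the deposited scale. These genes are the highest of 7086 over 7 libraries, so no p is given.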

How the data were processed

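RNA-seq libraries from 7 mice (3 PBS, 4 Botox) were analysed. Per the labels' protocols, Trizol RNA was ribodepleted, made into stranded libraries and sequenced from both ends. The submitters' processing notes name mm39, DESeq2, SAMtools and Bowtie2 2.2.5, without roles. How reads were counted, strand setting included, is not given in the sources used here. Values deposited by the authors are TPM per gene with a constant of 0.001 added and the genomic span as length, as the values show, and the constant was subtracted. Gene starts, ends and spans are as deposited. The authors' KEGG set table names no genes and was not used.

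Genes at 1 TPM or more in at least 3 libraries (11253) were fitted with limma 3.58.1 in R 4.3.3 on log2(TPM + 1), with an intensity trend and the group only, two-sided, with Benjamini-Hochberg adjustment at 0.05. On this scale folds of low genes are understated. Summed values were compared by exact permutation. Estimated reads are TPM times span divided by the smallest common step, with 89.1% to 90.5% of values under 20 reads within 0.1 of a whole number, and they describe but do not test. The fit and the step were tried on simulated data, the fit with less spread per gene than in these libraries. The exact test was tried on a made-up set of separated values. These trials do not show how the methods perform on data as variable as these. Python 3.11.15, numpy 2.4.6, pandas 2.3.3 and scipy 1.17.1 were used. The members and gene lists were chosen with earlier results of these data known. By rule, the genes to name were the members and family genes seen in at least 3 libraries. The rule also held the 8 partners of smallest p, the receptors, the top marker genes and the 5 genes of most like pattern. Other markers named above, with Anxa2 and Anxa11, fall outside it and were chosen with their values known. Alternatives were other scalings, pseudocounts, filters and weights, left-out libraries and a replicate block.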

Additional observations from a re-analysis of the deposited data

Results flagged for a closer look

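In the 4 Botox libraries, 18 measures of the S100 genes were searched for a library far from the rest of its group, and 2 had one. The share of S100a8 and S100a9 in the TPM of the 8 members was 14.2% in Botox 4, against 0% to 1.67% in the other Botox libraries. Per spliced length this share was 6.41% in Botox 4, against 0% to 0.663% in the others. The ratio of S100a10 to S100a4 per spliced length was 4.73 in Botox 2, against 1.36 to 1.81 in the others. Chance alone gives such a finding in about 1 in 20 measures, so some are to be looked for among 18, and the measures share genes.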

How the results depend on the processing

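No S100 member was called in the limma fit under any of the 15 alternatives, but several directions depended on the scale. Size factors turned the log2 fold changes of S100a1, S100a10, S100a11, S100a16, Myh9 and Anxa2 to 0.0432, 0.0232, 0.000381, 0.22, 0.0169 and 0.0210. Rescaling to nuclear protein-coding genes turned the same 6 to 0.0489, 0.0219, 0.0135, 0.22, 0.0182 and 0.0211. Quantile normalization turned S100a1, S100a8, S100a11, S100a16 and Plat to 0.11, 0.20, 0.0200, 0.24 and 0.0427. Without Botox 2 and Botox 4, S100a4, S100a6, S100a10 and S100a16 turned to 0.15, 0.0453, 0.0956 and 0.0905. S100a9 stayed negative under all 15, from -2.24 to -0.48. The summed difference of the other 6 members turned to 0.65 TPM with size factors and 5.61 TPM without Botox 2 and Botox 4, and leaving out 1 library gave -34.6 to -12.6 TPM. Leaving out 1 library gave -3.32 to -1.81 TPM for S100a8 and S100a9 and -4.03 to 0.70 percentage points for their share, with 0.45, 0.70 and 0.14 points without Botox 1, 2 and 3. Per spliced length, chosen after seeing the data, the 3 summary differences kept their sign. Of all genes, 1 was called, higher, with size factors, quantile normalization or array weights, and 22, all lower, without a filter. Leaving out 1 library gave 0 to 76 calls, the 76 without Botox 1. The cause of these changes was not tested. Replicate numbers are shared between groups, but same-numbered libraries come from different mice. Their deviations correlated at 0.0957, -0.0289 and -0.185 for numbers 1 to 3, and those of different-numbered libraries at -0.146 to 0.164. So few values cannot tell whether same-numbered libraries were processed together, which was not tested. With a replicate block 0 genes were called. Botox 4 has no PBS partner and drops out of the paired differences, which equal those without Botox 4, at -3.32 TPM for S100a8 and S100a9, -12.6 TPM for the other 6 and -4.03 points for the share. Depth limits S100a8, S100a9, S100a13 and S100a1, which rest on at most 84 reads per library, and S100a11, which rests on 30 to 148.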
